A study of Capra hircus with 12 samples.

Results

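miR-203 and miR-184 are miRNAs known from the epidermis and other stratified epithelia, and they were followed here through the annual cycle of the secondary hair follicles (SHFs) of cashmere goats. The entries chi-miR-203 and chi-miR-184 were picked by name, every arm included, and they are 2 of 376 listed miRNAs, with 1 mature form each. The choice also covered miR-205, which is not analysed here. The libraries came from SHFs dissected from the skin of Liaoning cashmere goats aged 1.5 years that had no experimental treatment, with 1 female and 1 male library in each of 6 months. February and March stood for telogen, the resting phase (4 libraries), May for early anagen and September for mid-anagen, the growth phase (2 libraries each), and November and December for catagen, the regression phase (4 libraries). The study took skin from 3 male and 3 female goats at each time point, and how they were combined into libraries is not given in the sources used here.

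In the mammalian epidermis, miR-203 rises as basal keratinocytes leave the cell cycle and differentiate, and it represses the progenitor factor p63. miR-184 is a miRNA of the lens, and of the cornea and other squamous epithelia. In keratinocytes it has been tied to the balance between proliferation and differentiation. The RefSeq gene table for ARS1.2, which is not the build used for mapping, matched 1 of the 2 members by name. It is MIR184, which lies between the protein-coding genes RASGRF1 and ANKRD34C with no other miRNA gene between them.

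Both members were detected in all 12 libraries, at very different levels. TPM here is the count of a miRNA scaled to the same total in every library, with no scaling by length. miR-203 had a TPM of 63230 ± 12787 (SD, n = 12), the 5th highest mean of all listed miRNAs, and it ranked between 3 and 7 in the single libraries. miR-184 had a TPM of 288 ± 189 and ranked 89 by its mean, between 67 and 150 in the single libraries. The mean of miR-203 was 219 times that of miR-184. By RT-qPCR, the study measured far less miR-203 in SHFs than in primary hair follicles or epidermis. Both of these tissues were dissected away, and any remainder of them in the miR-203 levels of single libraries was not tested. The study's in situ hybridisation of anagen SHFs placed miR-203 in the hair shaft.

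The libraries held 3135292 to 5788032 counts. miR-203 took 4.38% of the counts in the female September library (95% Wilson interval 4.36% to 4.40%) and 8.21% in the female December library (8.18% to 8.23%), the lowest and highest shares. miR-184 rested on 225 to 2392 counts, so that its counting error was between 2.04% and 6.67% of its value. Intervals and errors of this kind cover counting error only, as reads and not molecules were counted.

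The spread over the year set the pair apart. The TPM of miR-184 differed 15.7-fold between its lowest and highest library, and that of miR-203 differed 1.87-fold. On log2 levels after TMM normalisation, an adjustment of library sizes for composition, the SD of miR-184 over the 12 libraries was 1.31, and 297 of the 300 tested miRNAs had a smaller one. The SD of miR-203 was 0.33, against a median of 0.43 over the tested miRNAs.

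**Figure D1:**
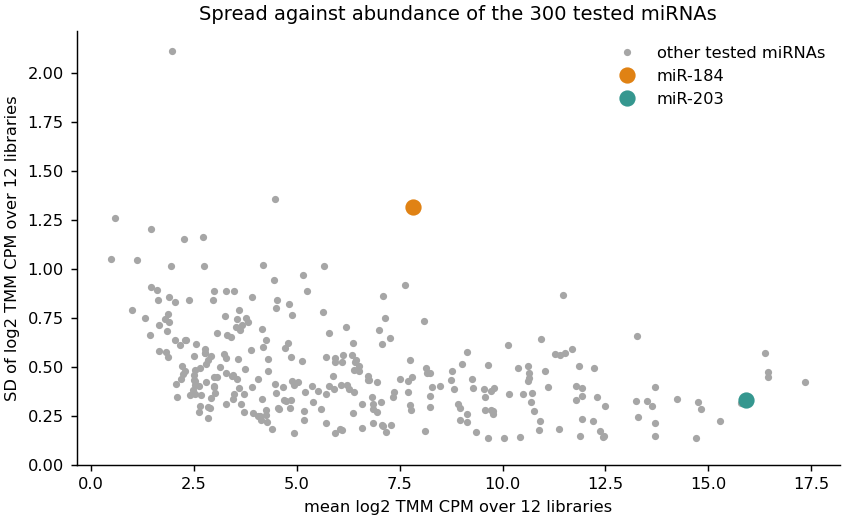
Each point is 1 of the 300 tested miRNAs, with its mean log2 TMM-normalised CPM over the 12 libraries on the x axis and the SD of that level on the y axis. miR-184 (orange) has an SD of 1.31, and miR-203 (teal) an SD of 0.33 at a far higher level.

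Through the months, the mean of miR-184 was lower in February, March and May than in September, November and December. On TPM these sets of months overlapped, as the female May library (281) lay above the male December library (213.8). In February the TPM of miR-184 was 195 in the female and 116 in the male library. In March it was 44.2 (female) and 186 (male), and in May 281 (female) and 81.7 (male). The March female library thus held the lowest value of the year.

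In September miR-184 stood at 408 (female) and 419 (male). In November it was 692 (female) and 341 (male), the female value being the highest of all, while December had 483 (female) and 213.8 (male). By mean TPM the months ran upward in the order March, February, May, December, September and November. Every neighbouring pair of months in this order overlapped in its libraries. After TMM normalisation the order was March, May, February, December, September and November, and only February and December did not overlap.

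For miR-203 the months lay closer together. Its TPM was 51279 (female) and 65396 (male) in February, 44274 and 80182 in March, and 72836 and 65726 in May. It was 43797 (female) and 60017 (male) in September, 74488 and 61002 in November, and then 82083 and 57682 in December. March alone, between its female and male library, spanned most of this range, and by mean TPM each month overlapped the next in order. After TMM normalisation the 4 catagen libraries, with CPM from 66714 to 91642, lay above all other libraries, which reached 65805 at most. Of the tested miRNAs, 1.67% had all catagen libraries above all others.

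**Figure D2:**
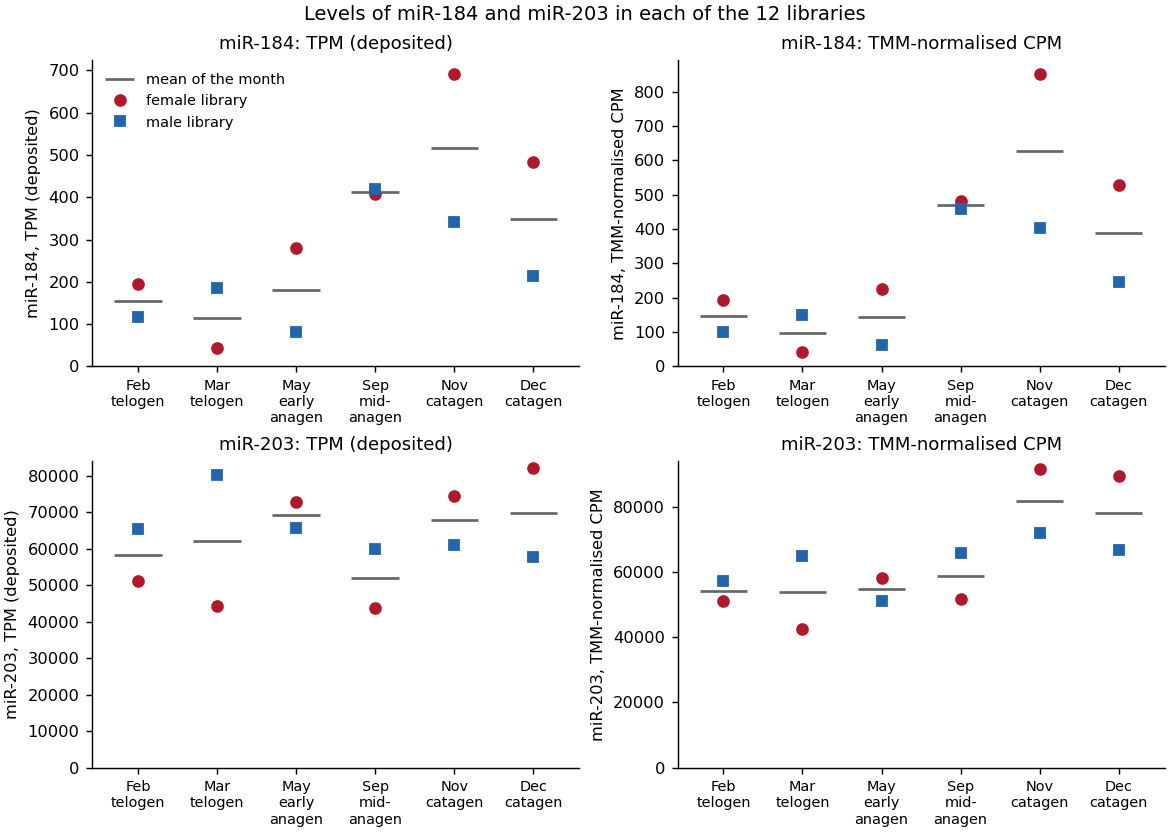
Levels of miR-184 (top) and miR-203 (bottom) by month, as deposited TPM (left) and TMM-normalised CPM (right), with female libraries as circles, male libraries as squares and the mean of each month as a line. miR-184 was at most 281 TPM from February to May and at least 213.8 TPM from September to December, so these ranges overlap. miR-203 stayed between 43797 and 82083 TPM.

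Telogen and catagen differed most clearly in miR-184. Its TPM was 135 ± 70.0 in telogen and 433 ± 205.02 in catagen (SD, n = 4 each). All 4 telogen libraries, from 44.2 to 195, lay under the 4 catagen libraries, from 213.8 to 692. The log2 fold change of telogen against catagen was -2.05 (standard error 0.50, 95% interval -3.13 to -0.97, adjusted p = 0.00755 by edgeR's quasi-likelihood test with Benjamini-Hochberg adjustment). This was a 4.15-fold lower level in telogen and the most negative log2 fold change of the 300 tested miRNAs in this fit. A call needed an adjusted p under 0.05 and at least a 2-fold change, which 10.7% of the tested miRNAs reached in this comparison, 4.33% with telogen lower. Groups that did not overlap after TMM normalisation were found for 30% of the tested miRNAs.

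The call was kept with each of the 12 libraries left out in turn, with log2 fold changes from -2.37 to -1.69. It held with scaling by library totals, at -1.68 (adjusted p = 0.0191). Within the female libraries the difference of mean log2 TMM levels was -2.89, and within the male libraries it was -1.35. Telogen and catagen did not overlap in either sex, which with 2 libraries a group also held for 68% of the tested miRNAs in the female and 69% in the male libraries, and 22.7% were lower in telogen without overlap in both sexes. In bulk follicles, fewer cells of a type and less RNA per cell cannot be told apart.

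For miR-203 the same comparison gave a smaller difference that depended on the scaling. Its TPM was 60283 ± 15911 in telogen and 68814 ± 11449 in catagen (SD, n = 4 each), with overlapping libraries. After TMM normalisation its level in telogen was lower, with a log2 fold change of -0.57 (standard error 0.15, 95% interval -0.90 to -0.24, adjusted p = 0.0124, same test). This is a 1.48-fold difference, under the 2-fold limit of a call, and 35% of the tested miRNAs had an adjusted p under 0.05 here. With scaling by library totals the log2 fold change was -0.19 and did not pass (adjusted p = 0.416). In the female libraries the TMM difference was -0.96, and in the male libraries it was -0.18. On TPM, male telogen libraries (65396 and 80182) lay above male catagen libraries (57682 and 61002).

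Mid-anagen and telogen were also told apart by miR-184. The 2 September libraries, at 408 and 419 TPM, lay above all 4 telogen libraries. The log2 fold change of September against telogen was 1.95 (standard error 0.56, 95% interval 0.72 to 3.17, adjusted p = 0.0234), the highest of the 300 tested miRNAs in this fit, where 9.33% were called, 4.67% with September higher, and 46.3% had groups that did not overlap. The call was lost without the female September library (adjusted p = 0.142), the male September library (0.0829) or the male February library (0.0526), with log2 fold changes of 1.91, 1.98 and 1.85. miR-203 had a log2 fold change of 0.12 (95% interval -0.28 to 0.52, adjusted p = 0.634), so that a 2-fold difference in either direction lay outside its interval.

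Catagen was above early anagen in miR-184. With a log2 fold change of 1.81 (standard error 0.64, 95% interval 0.42 to 3.20, adjusted p = 0.041) it was called, in a comparison where 16.7% of the tested miRNAs were, 9% with catagen higher. All 4 catagen libraries lay above the May libraries after TMM normalisation in both members, as the groups of 61% of the tested miRNAs did not overlap. The call of miR-184 was lost in 7 of the 12 fits that left out 1 library, among them those without either September library or without the male February library, which belong to neither group (adjusted p = 0.0561, 0.056 and 0.0504). Without the male May library the log2 fold change was 1.17 (adjusted p = 0.273), without the female November library 1.44 (adjusted p = 0.097), without the female December library 1.81 (adjusted p = 0.0667), and without the male November library 1.91 (adjusted p = 0.0552). With library totals it was 1.25 (adjusted p = 0.116). For miR-203, catagen against May gave 0.55 (standard error 0.19, adjusted p = 0.0363), under the 2-fold limit, and -0.01 with library totals. An adjusted p under 0.05 was reached by 37% of the tested miRNAs.

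From May to September, the step with the most calls among all miRNAs (18.3% of those tested, 9.67% with September higher), neither member was called. miR-184 went from 181 ± 140.7 TPM to 414 ± 7.62 TPM (SD, n = 2 each) without overlap, as 75% of the tested miRNAs did after TMM normalisation. Its log2 fold change was 1.70 (standard error 0.70, 95% interval 0.19 to 3.21, adjusted p = 0.0803). It passed with DESeq2 (1.67, adjusted p = 0.0309), with sex as a block (1.88, adjusted p = 0.0407) and in a fit of only these 4 libraries (1.63, adjusted p = 0.0013). Without the female May library it was 2.64 (adjusted p = 0.0481), and without the male May library 1.04 (adjusted p = 0.388). Without the female March library, which belongs to neither group, it passed at 1.64 (adjusted p = 0.0403). miR-203 had a log2 fold change of 0.10 (95% interval -0.36 to 0.56, adjusted p = 0.74) and of -0.42 with library totals.

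Early anagen and telogen did not differ beyond their spread in either member. The log2 fold change of May against telogen was 0.24 for miR-184 (95% interval -1.03 to 1.51, adjusted p = 0.821) and 0.02 for miR-203 (95% interval -0.38 to 0.42, adjusted p = 0.957). The interval of miR-184 is wide enough to hold a 2-fold change in either direction. Of the tested miRNAs, 2.33% were called there. Between September and catagen, edgeR called 0% of the tested miRNAs, with 7.67% at an unadjusted p under 0.05, and DESeq2 called 1 miRNA. The log2 fold change of catagen was 0.11 for miR-184 (95% interval -1.16 to 1.38) and 0.45 for miR-203 (95% interval 0.04 to 0.85, adjusted p = 0.619), whose 2 September libraries lay under all 4 catagen libraries after TMM normalisation. Such a separation was seen in 21% of the tested miRNAs.

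**Figure D3:**
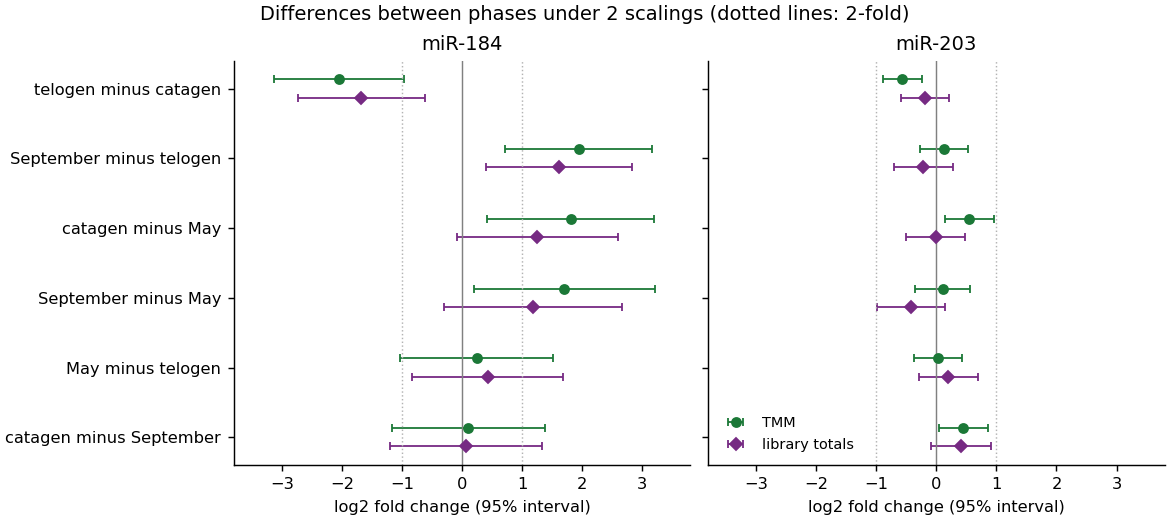
Log2 fold changes of miR-184 (left) and miR-203 (right) in the 6 comparisons between phases, with 95% intervals, after TMM normalisation (circles) and with scaling by library totals (diamonds). Dotted lines mark a 2-fold change. The point estimate of miR-184 lay beyond it in 4 comparisons under both scalings, and that of miR-203 in none. With library totals the miR-184 intervals of September minus May and of catagen minus May held 0.

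Month by month, neither member passed the test in the fit of all 12 libraries at any of the 6 steps between sampled months (2 libraries each). The widest steps of miR-184 were 1.70 on the log2 scale from May to September (adjusted p = 0.0878) and -1.39 from December to February (adjusted p = 0.269). The step from May to September passed with sex as a replicate block (1.86, adjusted p = 0.0462), without the female March library (1.64, adjusted p = 0.0331) and without the male March library (1.57, adjusted p = 0.0223). For miR-203 they were -0.53 from December to February (adjusted p = 0.196) and 0.48 from September to November (adjusted p = 0.969). Calls among all tested miRNAs came to 17.3% from May to September, 1.33% from December to February and 0% at the other 4 steps with edgeR, where 5% (February to March), 17.3% (March to May), 4.33% (September to November) and 3.33% (November to December) had an unadjusted p under 0.05. DESeq2 called 7 miRNAs from March to May.

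Ratios within a library do not depend on how libraries are scaled. For each count of miR-184 there were 264 to 1002 counts of miR-203 in telogen, 259 and 805 in May, 107 and 143.2 in September, and 108 to 269.7 in catagen. The log2 ratio was lower in telogen than in catagen by 1.55, or 2.92-fold, with p = 0.0571 in an exact two-sided permutation test (n = 4 each, smallest possible p = 0.0286). The male December library, with 269.7 counts of miR-203 for each of miR-184, passed the female February library, with 264, and the groups overlapped there. miR-184 was higher against miR-203 in both September libraries than in any telogen or May library.

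Both members were also set against the summed TPM of 8 listed epithelial miRNAs (miR-200a, miR-200b, miR-200c, miR-141, miR-429, miR-183, miR-182 and miR-96). This measure was added after the data were seen. The sum was 73.4 to 327 times miR-184 in telogen and 15.5 to 51.2 times in catagen, a difference of the ratio of miR-184 to the sum of -2.21 on the log2 scale (p = 0.0286, exact two-sided permutation test, n = 4 each, the smallest possible). miR-203 was 3.07 to 4.63 times the sum in telogen and 5.27 to 6.93 times in catagen, a difference of -0.67 on the log2 scale with the same p. After Benjamini-Hochberg adjustment over the 3 ratios, these exact p-values were 0.0429 for both and 0.0571 for the ratio of the members. The sum itself was 14286 to 17315 TPM in telogen and 9949 to 12886 TPM in catagen, without overlap. After TMM normalisation it was 13016 to 14209 CPM in telogen and 11748 to 14063 CPM in catagen, which overlapped, so a difference in the sum itself depended on the scaling. On TPM, miR-184 and the sum separated in opposite directions, so their ratio had to separate and give the smallest possible p. That p adds nothing to the separation of miR-184 itself. For miR-203 the log2 fold change with library totals was -0.19, so on that scale the -0.67 also holds the lower sum in catagen. How many other tested miRNAs separate telogen from catagen against this sum was not counted. After TMM normalisation alone, the groups of 30% of the tested miRNAs did not overlap.

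**Figure D4:**
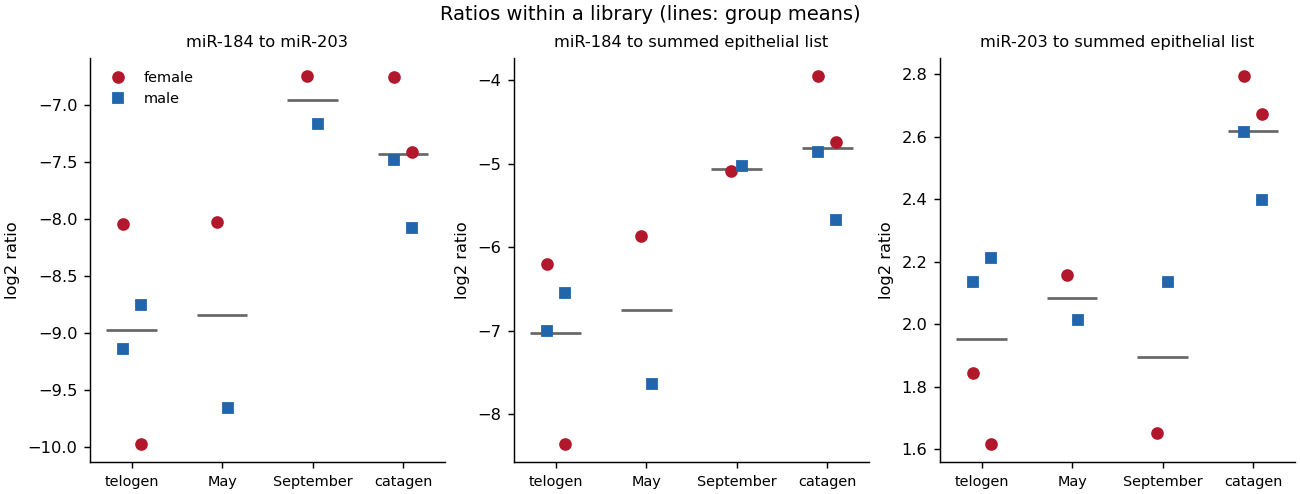
Log2 ratios within each library of miR-184 to miR-203 (left), of miR-184 to the summed epithelial miRNAs (middle) and of miR-203 to that sum (right), by phase, with female libraries as circles, male libraries as squares and group means as lines. Telogen and catagen overlap only in the left panel, and how many other tested miRNAs separate on such ratios was not counted.

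No difference between female and male libraries over the year passed the test. With month as a term, the log2 fold change of female against male libraries was 0.59 for miR-184 (standard error 0.38, 95% interval -0.25 to 1.43, adjusted p = 0.556) and -0.03 for miR-203 (95% interval -0.34 to 0.28, adjusted p = 0.967). edgeR called 0% of the tested miRNAs, with 11.3% at an unadjusted p under 0.05, and 1 was called without the filter on low counts. Single months gave large gaps in miR-184. The female library was 3.44-fold higher in May, 2.03-fold in November, 2.26-fold in December and 1.67-fold in February by TPM, while in March the male library was 4.20-fold higher. In September the TPM of the libraries was 408 and 419.

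miR-203 was higher in the female library in May, November and December and higher in the male library in February, March and September. The gaps ran from 1.11-fold in May to 1.81-fold in March. By TPM March was thus the month with the widest gap in both members, and in both the male library was the higher one. After TMM normalisation the log2 gap of miR-184 was as wide in May, with the female library higher (1.82, against -1.82 in March). The sex difference in telogen minus that in catagen was -1.50 on the log2 scale for miR-184 (standard error 0.52, adjusted p = 0.0906) and -0.77 for miR-203 (standard error 0.26, adjusted p = 0.0879). Neither passed, and 7% of the tested miRNAs had an adjusted p under 0.05 in this test. With 1 library for each sex and month, sex cannot be told apart from the animals behind a library.

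**Figure D5:**
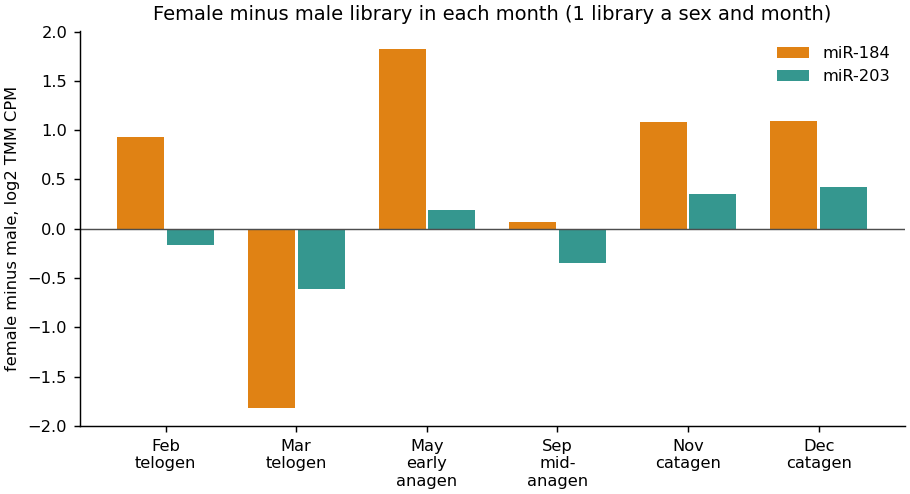
Difference between the female and the male library of each month, in log2 TMM-normalised CPM, for miR-184 (orange) and miR-203 (teal), with 1 library for each sex and month and no error bar for that reason. The male library was higher in both members in March, and the female library in May, November and December.

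The listed epithelial miRNAs differed among themselves in direction between telogen and catagen. Of the 8 listed, all passed the filter, and 0 were called between telogen and catagen by edgeR, although 3 had an adjusted p under 0.05 and 4 an unadjusted one. Over all tested miRNAs 10.7% were called and 35% had an adjusted p under 0.05, so the list's count was near that of all miRNAs. miR-141 was higher in telogen (log2 fold change 0.91), and miR-182 (-0.66) and miR-183 (-0.47) were lower there. DESeq2 called 1 of the 8 and scaling by library totals called 2, each higher in telogen. Most calls of all tested miRNAs were also higher there in both settings. The list's median log2 fold change was 0.17, against 0.00 over all tested miRNAs. From May to September 3 of the 8 were called, all higher in September: miR-182 (1.62), miR-200a (1.43) and miR-183 (1.05). Over all tested miRNAs 9.67% were called higher there. With library totals 1 of the 8 was called. In catagen against May miR-182 was called higher (1.73), and miR-183 (0.76) and miR-200a (0.98) had an adjusted p under 0.05 below the 2-fold limit, in a comparison where 9% of all tested miRNAs were called higher and 37% had such a p. In September against telogen miR-141 was called lower (-1.04), in a comparison where 9.33% of all tested miRNAs were called. There miR-183 (0.76) and miR-200a (0.76) were higher at an adjusted p under 0.05, below the 2-fold limit. miR-200b and miR-200c, the most abundant at mean TPM of 5387 and 5705, are near-identical in sequence and may share reads.

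Among 15 listed arms of miRNAs tied to keratinocyte growth or differentiation in other species, 14 passed the filter. Of these, 0 were called between telogen and catagen by edgeR, DESeq2 or with library totals, while 5 were lower and 1 higher in telogen at an adjusted p under 0.05, and 6 had an unadjusted p under 0.05. Over all tested miRNAs 35% had an adjusted p under 0.05, in either direction. The most abundant of them, miR-27b-3p, had a log2 fold change of -0.80, and miR-21-5p, a miRNA of growth and repair, one of 0.59. The median log2 fold change of the list was -0.33, against 0.00 over all tested miRNAs. From May to September 4 of the 14 were called and higher in September: miR-125b-3p (1.43), miR-22-3p (1.33), miR-30a-3p (1.32) and miR-24-5p (1.18), beside 9.67% of all tested miRNAs. With library totals the direction of the list's calls from May to September turned, with 0 higher and 2 lower. Most calls of all tested miRNAs were then lower in September as well. In catagen against May the same 4 were called higher: miR-24-5p (1.47), miR-30a-3p (1.39), miR-125b-3p (1.27) and miR-22-3p (1.18), beside 9% of all tested miRNAs. At an adjusted p under 0.05 were 7 higher and 1 lower, beside 37% in either direction. In September against telogen miR-125b-3p alone was called, higher at 1.12, beside 4.67% called higher among all.

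Markers of other cells were followed in the comparisons where miR-184 was called. In the study's in situ hybridisation, miR-143-3p of the mesenchymal list lay in the hair matrix of the SHFs themselves. It had the highest mean TPM of that list (89982.5, against 14675 for miR-199a-3p). Neither it nor the mesenchymal sum therefore marks other cells alone. Between telogen and catagen 10.7% of all tested miRNAs were called, and 35% had an adjusted p under 0.05. The erythrocyte miRNAs miR-451-5p and miR-144-5p summed to 27.9 to 115 TPM in telogen and to 5.41 to 26.4 TPM in catagen, with 1 of 2, miR-451-5p, called higher in telogen (log2 fold change 1.45), and their sums overlapped after TMM normalisation (26.8 to 93.7 and 6.39 to 30.5 CPM). Leukocyte miRNAs summed to 442 to 664 TPM in telogen and 393 to 540 TPM in catagen, with 1 of 4, miR-223-3p, called higher in telogen (log2 fold change 1.36). Its other arm, miR-223-5p, was higher at an adjusted p under 0.05 (0.90). The rest of the leukocyte list went the other way without passing. These were miR-155-5p (-0.38), the most abundant of the list at a mean TPM of 316, and miR-150 (-0.05). After TMM normalisation the leukocyte sums overlapped widely (359 to 639 CPM in telogen and 484 to 637 CPM in catagen). For 9 listed mesenchymal arms the sums overlapped widely, at 123496 to 146840 TPM in telogen and 118318 to 148888 TPM in catagen. Of these arms 0 were called in telogen against catagen by edgeR or DESeq2. The sums covered opposite moves at an adjusted p under 0.05. miR-214-3p (log2 fold change 0.76), miR-214-5p (0.63) and miR-199a-3p (0.55) were higher in telogen, and miR-143-3p (-0.55) and miR-145-5p (-0.85) lower. Endothelial miR-126 arms (9022 to 12699 and 8819 to 11616 TPM) and 5 muscle arms (1809 to 3550 and 2411 to 3485 TPM) overlapped too. Both lists had 0 calls by edgeR in that comparison and 0 members at an adjusted p under 0.05. The melanocyte miRNA miR-211 was at 64.9 to 126.3 TPM in telogen and 33.2 to 64.9 TPM in catagen and was not called. Of all these markers only miR-206 was at 0 in any library, in 1 of 12. In catagen against May, where miR-184 was called higher, 9% of all tested miRNAs were called higher. Among them were miR-143-3p of the mesenchymal list (log2 fold change 1.02, adjusted p = 0.00109) and the muscle miRNA miR-1 (1.12, adjusted p = 0.0105). Each was the only call of its list. Of the mesenchymal arms 2 were higher and 3 lower at an adjusted p under 0.05, beside 37% of all tested miRNAs in either direction. DESeq2 called 0 of these arms, while scaling by library totals called 3 lower and 0 higher in catagen. Most calls of all tested miRNAs were also lower in catagen with library totals. After TMM normalisation the mesenchymal sum was 109069 to 109285 CPM in May and 136846 to 162487 CPM in catagen, and the muscle sum was 1622 to 2078 and 2789 to 4176 CPM. The muscle sum was mostly miR-1 (mean TPM 2766, against 218 for miR-133a-3p), so it repeats that call. The other tested muscle arms, miR-133a-3p (-0.13), miR-133a-5p (-0.11) and miR-133b (0.099), did not pass. On TPM the mesenchymal and muscle sums overlapped. May was at 136171 to 140589 TPM for the mesenchymal and 2024 to 2673 TPM for the muscle arms. Endothelial miR-126-3p (0.71) and leukocyte miR-155-5p (0.87) were also higher in catagen at an adjusted p under 0.05, below the 2-fold limit. Their lists' other arms did not pass, with miR-126-5p at -0.46. After TMM normalisation the endothelial sum was 7133 to 7758 CPM in May and 10496.5 to 13717 CPM in catagen. The leukocyte sum was 333 to 337 and 484 to 637 CPM. On TPM both of these sums overlapped. In September against telogen 0 of these marker miRNAs were called by edgeR, beside 9.33% of all tested miRNAs. At an adjusted p under 0.05, 1 mesenchymal arm was higher and 4 were lower in September, and 0 of the other lists passed. Counts of all tested miRNAs with such a p are given at the end, as calls with no minimum fold change. The part of these cells in the levels of miR-184 was not tested.

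Correlation with the other 299 tested miRNAs, on log2 TMM levels over the 12 libraries, described which patterns were most alike. For miR-184 these were miR-27a-5p (Pearson's r = 0.91), miR-103-3p (0.89) and novel_587 (0.88), and the least alike were miR-376e-3p (-0.85), miR-376c-3p (-0.84) and miR-199a-5p (-0.84). With library totals the value of miR-103-3p dropped to 0.56, while that of miR-27a-5p was 0.89. For miR-203 the highest were miR-34c-5p (0.83), miR-1814 (0.82) and miR-184 itself (0.77), and the lowest miR-217-5p (-0.79), miR-146a (-0.71) and miR-21-5p (-0.71). With library totals miR-34c-5p was at 0.85, miR-1814 at 0.63 and the 3 lowest between -0.18 and -0.11, and the correlation between miR-203 and miR-184 was then 0.36. The libraries share phases and scaling factors, so these values are descriptions of the 12 libraries.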

How the data were processed

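Small RNA libraries of SHFs were sequenced and trimmed by the authors, mapped to CHIR_2.0 and quantified with Bowtie 0.12.9. The authors deposited raw counts of 376 miRNAs in each library, not normalised. They also deposited TPM values, which never departed by more than 0.00499 from the counts rescaled to a common total. How reads matching several miRNAs were assigned is not given in the sources used here.

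Libraries were grouped by the phase and month in the labels. Testing used edgeR 4.0.16 (R 4.3.3) on the 300 miRNAs, both members among them, that passed 5 CPM in 2 or more libraries. Library sizes were adjusted by TMM, and glmQLFit and glmQLFTest were run on all 12 libraries with 4 phases (6 comparisons), with 6 months (6 steps), and by sex with month as a term. Each standard error was taken from the size of the log2 fold change over the root of its F. Libraries of 1 month differed by more than sampling noise (chi-square 65.2 to 635 times its degrees of freedom). The female and male library of a month are of different animals. Whether the libraries of different months are too, and how many goats each holds, is not given in the sources used here, so p-values measure the spread between these libraries.

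The members and the lists were chosen with earlier results of these data known. Named beside the members are the listed miRNAs that edgeR called with TMM in the comparisons given for their list. Some others with an adjusted p under 0.05 or a high level are named too. So are the 3 with the highest and the 3 with the lowest correlation to each member. Log2 levels have a prior count of 1. Alternatives were DESeq2 1.42.0, RLE, library totals, other filters, sex as a block, calls without a fold limit, fits restricted to the compared groups, and leaving out each library. Leaving out libraries in the month fits, the sex differences by phase the ratios to the epithelial sum and the list sums after TMM normalisation were added after seeing the data. Mature sequences are not used here.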

Additional observations from a re-analysis of the deposited data

How the results depend on the processing

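The lower miR-184 level in telogen than in catagen was called in every alternative run. Other calls of miR-184 and the direction of small differences in miR-203 moved, and the cause was not tested. All values that follow are log2 fold changes. For miR-184, September against May passed with DESeq2 (1.67), in a fit of those 4 libraries only (1.63) and with sex as a replicate block (1.88 between phases, 1.86 between months). Catagen against May did not pass with library totals (1.25), and catagen against September was -0.00079 with the sex block. The block changed no other call. For miR-203, library totals turned September against May (-0.42, also between months), catagen against May (-0.0098), September against telogen (-0.22), March against February (0.093) and December against November (0.045). May against telogen turned with DESeq2 and RLE (both -0.025), and September against May with the filter of 10 CPM in 4 libraries (-0.033). With no minimum fold change miR-203 passed in telogen against catagen (-0.57) and in catagen against May (0.55).

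With single libraries left out, miR-184 ranged from 1.04 to 2.64 for September against May in both fits, from 1.65 to 2.24 for September against telogen and from 1.17 to 2.77 for catagen against May. It ranged from -0.79 to 0.89 for May against telogen, from -0.24 to 0.38 for catagen against September, from -0.42 to 1.88 for May against March and from -0.17 to 0.86 for November against September. miR-203 ranged from -0.083 to 0.27 for September against May in both fits, from -0.020 to 0.18 for May against telogen, from -0.063 to 0.29 for September against telogen, from -0.34 to 0.083 for December against November, from -0.48 to 0.17 for March against February and from -0.13 to 0.51 for May against March. A group of 2 that loses a library keeps 1, assumed to vary like the other groups.

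Calls among all tested miRNAs moved by over 1.5 times in some settings. Between telogen and May they were 7, but 12 with DESeq2, 4 with library totals, 15 with the sex block and 0 in a fit of those groups only. They were 50 against 82 with library totals between May and catagen, 52 against 79 between the months May and September, 28 against 18 in a fit of only telogen and September, and 4 against 10 with DESeq2 from December to February. Between telogen and catagen 19 of 32 calls were higher in telogen, 43 of 48 with library totals, where the median log2 fold change of all tested miRNAs moved from 0.00064 to 0.35. The split was 27 of 38 with DESeq2 and 25 of 36 with RLE. With library totals 9 of 80 calls were higher in September than in May (29 of 55 with TMM), 10 of 82 higher in catagen than in May (27 of 50) and 4 of 42 higher in September than in telogen (14 of 28), and these medians moved to -0.46, -0.47 and -0.29. Without the female September library 27 miRNAs were called from May to September and 6 between telogen and September. With no minimum fold change the counts were 105 between telogen and catagen, 102 from May to September, 16 between telogen and May, 111 between May and catagen and 76 between telogen and September. Permuting the ratio of miR-184 to miR-203 within sex cannot give less than the 0.0556 it gave.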
